A study of Saccharomyces cerevisiae with 12 samples.

Results

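The 28 spots described here were the array positions of Saccharomyces cerevisiae BY4741 whose mRNA and synthesis rate both stood high, relative to the typical spot, at 120 to 240 min in Congo Red, and whose mRNA did not stand as high at 30 and 60 min. They were taken from the authors' deposited table of mRNA abundance and synthesis rate, in which 4468 of 6144 spots had all 12 values. Of these, 3574 lay above the 20th percentile of mean mRNA abundance. For each of the 3574 spots the log2 ratio to 0 min was taken at each time, less the median ratio of all 3574 spots. D is its mean over 120, 180 and 240 min for mRNA, S the same mean for the synthesis rate, and E its mean over 30 and 60 min for mRNA. A total of 133 spots stood among the 300 highest D and the 300 highest S. Of these, 105 were also among the 300 highest E and the other 28, called late-induced spots from here on, were not. The late-induced spots were thus chosen by D, S and E, and these values are given below as a description, without a test.

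Congo Red attaches to chitin chains as the cell wall of yeast is built, which weakens the wall. Budding yeast senses such damage through membrane proteins of the Wsc and Mid families, which act through Rho1 and protein kinase C (Pkc1) on a kinase cascade that ends in the MAP kinase Slt2. Slt2 activates the transcription factor Rlm1, which raises the transcription of genes for wall proteins and wall-building enzymes. The amount of an mRNA follows both from how fast it is made and from how fast it decays, so an mRNA with slow decay reaches a new level later than its synthesis does. Spot identifiers here carry no gene: 0 of them matched the 6477 genes of the reference table. Late-induced spots are therefore named by block row, block column and printing position, as in R15 - C1 : 7, and are ordered by the size of their change and not by a role.

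Wild type BY4741 cells grew at 24 °C in rich glucose medium and received Congo Red at 30 µg/ml. The groups were 30, 60, 120, 180 and 240 min in the dye, set against cells collected at 0 min. At each of these 6 times mRNA abundance was measured on 3 arrays hybridised with cDNA primed by oligo-dT, and nascent transcription on 3 arrays hybridised with RNA labelled by genomic run-on. In genomic run-on, permeabilised cells extend the transcripts that polymerases had already begun, so the signal follows the density of transcribing polymerases over a gene. No group was kept without the dye after 0 min, so effects of the dye and of time in culture cannot be told apart. The labels give no separate cultures for the replicates, and any p-value then covers only array-to-array spread, which may be technical.

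The summed intensity of an array lay between 387129 and 1660990 for the 18 mRNA arrays and between 512224 and 1880500 for the 18 nascent arrays. An array listed 14.9% to 18.2% of its spots at 0. Across spots, the log2 intensities of arrays of the same group had correlations of 0.800 to 0.959. Every one of the 28 late-induced spots had a value above 0 on all 36 arrays.

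D of the late-induced spots ran from 0.66 to 2.04 with a median of 0.90, and S from 0.51 to 2.57 with a median of 0.81. Both were above 1, a doubling relative to the typical spot, in 6 of the 28 spots. E ran from -0.13 to 0.43 with a median of 0.33. Early mRNA was thus above the typical spot in 27 of 28, and 9 of the 28 stood at ranks 302 to 348 of E, close to the limit of 300. Many of the 28 were dim in mRNA at 0 min. Among the 3574 spots, 22 of them lay under the 50th percentile of 0 min mRNA and 11 under the 10th. Their median percentile was 26.7, beside 19.0 in the 105 spots also high early. For the 0 min synthesis rate 13 lay under the 50th percentile and 5 under the 10th. D, E and S are ratios to these 0 min values, whose part in their size was not tested.

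Values on either side of the limits differed little. The limits lay at 0.65 for D, 0.50 for S and 0.43 for E. Just inside the limits of both D and S were R3 - C3 : 10, with D of 0.67 and S of 0.51, and R6 - C8 : 2, with D of 0.66 and S of 0.52. Just outside the limit of D were R4 - C2 : 9, with D of 0.65 and S of 0.87, and R13 - C22 : 15, with D of 0.64 and S of 0.62. Spots just outside the limit of S were R13 - C23 : 13, with D of 1.00 and S of 0.498, under the limit of 0.499, and R8 - C13 : 8, with D of 0.70 and S of 0.49. Early values separated R3 - C14 : 8 and R3 - C12 : 8, which were kept with E of 0.433 and 0.428, from R10 - C5 : 4 and R1 - C2 : 14, which were left out with E of 0.441 and 0.438. Counted within 0.1 of a limit, 9 late-induced spots were near that of D, 7 near that of S and 14 near that of E.

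**Figure D1:**
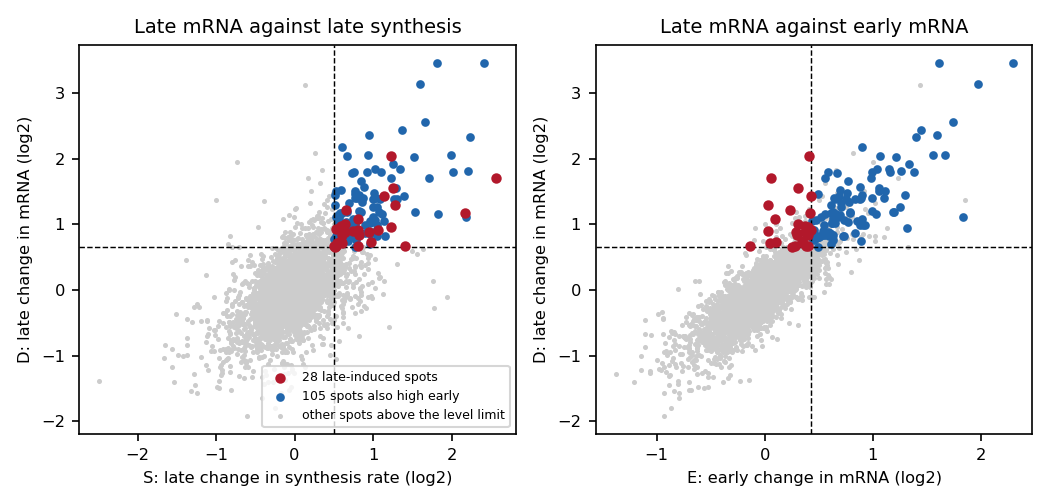
Late change in mRNA (D, log2) against late change in synthesis rate (S, log2) on the left and against early change in mRNA (E, log2) on the right, for the 3574 spots above the level limit in the authors' table. Dashed lines are the limits of the 300 highest values. The 28 late-induced spots (red) lie left of the line at 0.43 in the right panel, many of them close to it, while the 105 spots also high early (blue) lie beyond it.

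The values behind the choice were computed again from the single arrays, which are the arrays the table was made from, so this is a second processing of the same samples and not an independent check. Computed from the mean log2 intensities of the 3 arrays at each time, D kept 24 of the 28 spots among the 300 highest and S kept 26, but 10 of the 28 came among the 300 highest E. All 3 conditions were met by 13 of the 28. Across the 28 spots the arrays and the table correlated at 0.925 for D, 0.966 for S and 0.740 for E.

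Relative to the typical spot, the median mRNA of the late-induced spots after 30, 60, 120, 180 and 240 min was 0.21, 0.38, 0.83, 0.96 and 1.00 (log2). The median synthesis rate was 0.30, 0.49, 0.74, 0.80 and 0.77 at the same times. By 60 min the median spot had 42.9% of its mean late change in mRNA and 56.1% of its mean late change in synthesis rate.

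The rule placed no limit on early synthesis, and there the late-induced spots and the 105 spots also high early had like medians. Early synthesis, the mean of 30 and 60 min, was above the typical spot in 26 of the 28 late-induced spots, with a median of 0.39 and a range from -0.15 to 1.18. In the 105 spots also high early it was above 0 in 102, with a median of 0.39. Early mRNA differed between the same sets by construction, with a median of 0.33 in the late-induced spots and 0.75 in the spots also high early. Early and late synthesis are both ratios to the same 0 min values, which chose the spots through S, so early synthesis was not tested.

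Of the 28 spots, 7 had an E outside the 1000 highest, the lowest E among the 28. These were R15 - C1 : 7, R11 - C1 : 14, R15 - C22 : 5, R13 - C2 : 15, R11 - C24 : 4, R1 - C6 : 3 and R6 - C12 : 3. Their mRNA had a median of -0.11 at 30 min, with 3 of 7 above the typical spot, and of 1.01 at 120 min. Their synthesis rate at 30 min was above the typical spot in 7 of 7, between 0.09 and 0.55 with a median of 0.36. At 60 min the mRNA had a median of 0.27, with 5 of 7 above the typical spot, and the synthesis rate a median of 0.35, with 6 of 7 above it. These 7 were picked for a low early mRNA from spots picked for a high S, so the order of the measures at 30 min is a description. On the arrays the mean nascent change at 30 min was -0.60 in R11 - C1 : 14, where replicate 1 was low, and between 0.05 and 0.53 in the others.

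Relative to the typical spot, the highest mRNA value of a late-induced spot fell at 120 min in 5, at 180 min in 14 and at 240 min in 9 of the 28. That of the synthesis rate fell at 120 min in 10, at 180 min in 11 and at 240 min in 7. Synthesis peaked before mRNA in 11 spots, at the same time in 13 and after it in 4. On that scale none of the 28 had its highest value of either measure at 30 or 60 min. The choice by D and S favours such late values, and the 105 spots also high early were alike. At 120, 180 and 240 min, 23, 47 and 32 of the 105 had their highest mRNA, and 29, 47 and 28 their highest synthesis rate. Of all 3574 spots, 829 and 716 had their highest mRNA at 30 and 60 min, and 969 and 573 their highest synthesis rate. In the table as deposited, without subtraction of the typical spot's ratio, the order in the 28 differed. There the highest mRNA value came at 30 or 60 min in 8 of the 28, at 120 min in 6, at 180 min in 9 and at 240 min in 5. The highest synthesis rate came at 30 or 60 min in 11, at 120 min in 12, at 180 min in 2 and at 240 min in 3. The name late-induced thus stands for the rule. Relative to the typical spot all 28 had their highest values late, which the choice favours. Early mRNA, the mean of 30 and 60 min, was already above the typical spot in 27 of the 28.

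**Figure D2:**
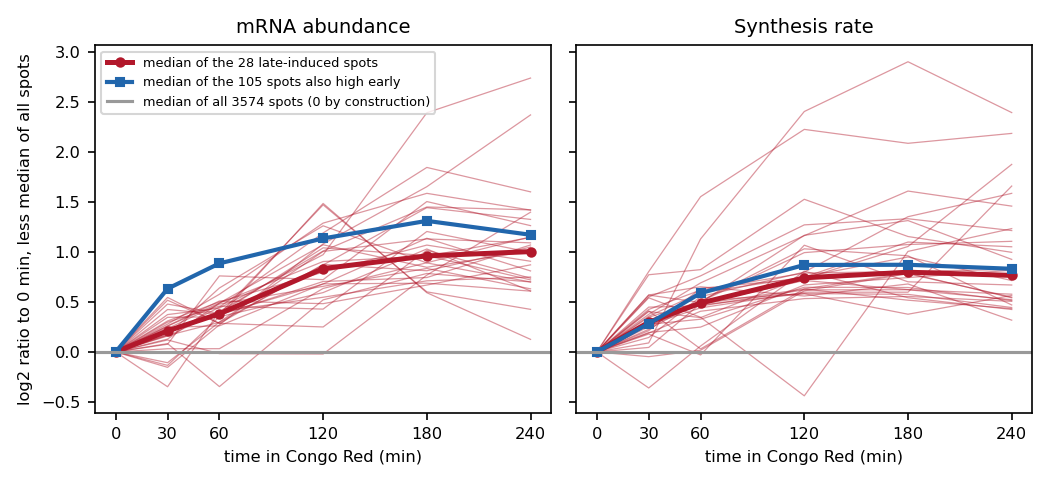
Log2 ratio to 0 min, less the median of all 3574 spots, against time in Congo Red (min) for mRNA abundance (left) and synthesis rate (right) in the authors' table. Thin lines are the 28 late-induced spots, the thick red line their median, and the thick blue line the median of the 105 spots also high early. In mRNA the red median lies below the blue one at 30 min (0.21 against 0.63), and in synthesis rate the medians lie close together (0.30 against 0.28).

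The array values of the 12 spots with the highest lower value of D and S are given next, as log2 intensity after quantile normalisation within an assay, for replicates 1, 2 and 3 at each time. Changes from 0 min in these spots are a description, since the rule used the same contrast. Separation from 0 min was judged without pairing by replicate number. Same-numbered mRNA arrays deviated together, so mRNA can overlap 0 min although each array rose. The times of separation therefore give no order of the 2 assays. R15 - C1 : 7 had the highest S of all 3574 spots, at 2.57, with a D of 1.70 and an E of 0.06. Its mRNA arrays read 6.47, 5.93 and 5.79 (0 min), 6.95, 6.03 and 5.86 (30 min), 6.52, 6.38 and 6.11 (60 min), 8.41, 7.40 and 7.14 (120 min), 9.00, 8.27 and 7.56 (180 min), and 9.54, 8.19 and 7.72 (240 min). Its nascent arrays read 7.04, 7.37 and 7.49 (0 min), 6.76, 7.50 and 7.91 (30 min), 7.90, 8.23 and 8.99 (60 min), 9.86, 9.33 and 9.87 (120 min), 10.11, 9.98 and 10.00 (180 min), and 9.59, 9.05 and 10.13 (240 min). The mRNA arrays overlapped 0 min at 30 and 60 min, and all 3 arrays at 120, 180 and 240 min lay above all 3 at 0 min. In nascent signal that separation came at 60 min. Each mRNA array was above the 0 min array of its own number already at 30 and 60 min, so no order of the assays is read.

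R11 - C1 : 14 had a D of 1.30 and an S of 1.27. Its mRNA arrays gave 5.75, 3.05 and 2.90 (0 min), 4.38, 3.65 and 2.50 (30 min), 4.42, 4.04 and 3.71 (60 min), 4.95, 4.66 and 3.83 (120 min), 5.28, 4.62 and 5.33 (180 min), and 5.24, 5.06 and 3.63 (240 min). Its nascent arrays gave 6.68, 6.84 and 7.51 (0 min), 4.49, 7.31 and 7.43 (30 min), 7.17, 7.63 and 7.76 (60 min), 7.76, 8.10 and 8.30 (120 min), 7.98, 7.94 and 8.25 (180 min), and 7.59, 8.12 and 8.29 (240 min). The mRNA groups overlapped 0 min at every time. Replicate 1 at 0 min, at 5.75, stood far above the other two, and replicate 3 at 30 min, at 2.50, lay below all 3. Only the nascent arrays at 120, 180 and 240 min all lay above those at 0 min, and replicate 1 at 30 min, at 4.49, was the lowest nascent value of the spot.

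R11 - C12 : 7 combined a D of 1.55 with an S of 1.25. On mRNA arrays it read 5.29, 5.60 and 5.21 (0 min), 5.39, 5.58 and 5.62 (30 min), 5.55, 5.72 and 6.03 (60 min), 6.06, 6.71 and 6.80 (120 min), 7.30, 7.01 and 7.03 (180 min), and 6.91, 7.02 and 6.79 (240 min). On nascent arrays it read 6.23, 6.58 and 6.64 (0 min), 6.37, 6.67 and 6.62 (30 min), 6.94, 6.93 and 7.23 (60 min), 7.23, 7.30 and 8.04 (120 min), 7.79, 7.96 and 7.97 (180 min), and 7.73, 7.39 and 8.32 (240 min). Both assays separated from 0 min at 120, 180 and 240 min, and the nascent arrays also at 60 min. R6 - C22 : 1 had the highest D of the 28, at 2.04, with an S of 1.22. On mRNA arrays it gave 4.50, 3.78 and 5.59 (0 min), 5.21, 3.76 and 5.90 (30 min), 4.40, 4.50 and 6.15 (60 min), 5.34, 4.98 and 6.24 (120 min), 6.95, 6.27 and 7.39 (180 min), and 6.89, 7.08 and 7.85 (240 min). On nascent arrays it gave 4.99, 5.32 and 5.92 (0 min), 5.49, 5.66 and 5.67 (30 min), 5.19, 6.07 and 6.03 (60 min), 5.78, 6.68 and 6.04 (120 min), 6.26, 6.63 and 6.55 (180 min), and 5.98, 8.45 and 7.68 (240 min). Its arrays overlapped 0 min in both assays until 120 min and lay wholly above it at 180 and 240 min.

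R9 - C2 : 10 had the larger change in synthesis, with an S of 2.17 beside a D of 1.17. The mRNA arrays were at 7.01, 6.07 and 6.22 (0 min), 7.10, 6.67 and 6.60 (30 min), 7.42, 7.15 and 7.07 (60 min), 8.18, 7.60 and 7.13 (120 min), 8.44, 7.82 and 7.58 (180 min), and 8.33, 7.58 and 7.33 (240 min). The nascent arrays were at 7.19, 7.35 and 8.62 (0 min), 7.64, 8.36 and 8.01 (30 min), 8.34, 9.10 and 8.93 (60 min), 9.45, 9.49 and 9.60 (120 min), 9.50, 9.58 and 9.62 (180 min), and 8.74, 9.87 and 9.70 (240 min). In mRNA all arrays lay above 0 min from 60 min on, although its E of 0.42 kept it inside the limit. R3 - C12 : 8 had a D of 1.43 and an S of 1.14. Its mRNA arrays stood at 8.90, 8.04 and 7.92 (0 min), 9.20, 8.46 and 8.16 (30 min), 9.57, 8.72 and 8.51 (60 min), 10.57, 9.31 and 8.96 (120 min), 10.84, 9.55 and 9.25 (180 min), and 10.84, 9.82 and 8.92 (240 min). Its nascent arrays stood at 10.62, 10.42 and 10.27 (0 min), 10.86, 10.93 and 11.05 (30 min), 11.08, 10.78 and 11.56 (60 min), 11.72, 11.52 and 11.28 (120 min), 11.21, 11.42 and 11.88 (180 min), and 11.59, 11.35 and 11.61 (240 min). The nascent arrays lay wholly above 0 min at every later time, from 30 min on, and the mRNA arrays from 120 min on. Each mRNA array was, however, above the 0 min array of its own number at 30 and 60 min too.

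**Figure D3:**
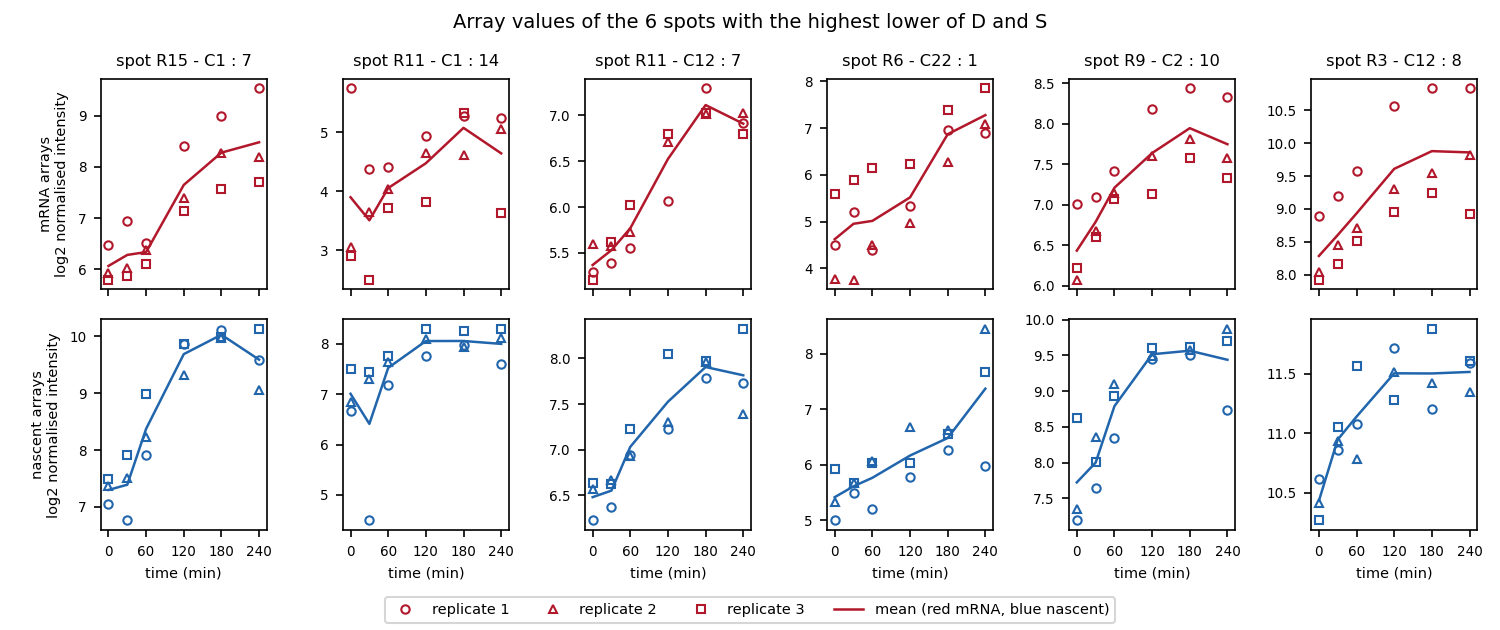
Log2 normalised intensity on each array against time (min) for the 6 late-induced spots with the highest lower value of D and S, with mRNA arrays above (red) and nascent arrays below (blue). Symbols are replicates 1, 2 and 3 and the line is their mean. In R15 - C1 : 7 the 3 mRNA arrays at 240 min, from 7.72 to 9.54, lie above the 3 at 0 min, from 5.79 to 6.47, while in R11 - C1 : 14 replicate 1 at 0 min lies at 5.75, above all mRNA arrays at 240 min.

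R1 - C22 : 4 and R1 - C22 : 9 share a block of the array. R1 - C22 : 4, with a D of 0.95 and an S of 1.23, read 4.60, 3.50 and 3.41 (0 min), 3.90, 3.95 and 5.28 (30 min), 3.55, 5.48 and 4.43 (60 min), 5.19, 5.32 and 4.63 (120 min), 4.16, 5.15 and 4.63 (180 min), and 4.49, 5.41 and 3.57 (240 min) on mRNA arrays. On nascent arrays the same spot read 5.29, 4.75 and 4.68 (0 min), 5.48, 5.07 and 6.47 (30 min), 5.24, 6.46 and 5.61 (60 min), 6.69, 6.46 and 6.22 (120 min), 6.13, 5.96 and 6.19 (180 min), and 5.86, 6.38 and 5.50 (240 min). Its mRNA arrays separated from 0 min only at 120 min and its nascent arrays at 120, 180 and 240 min. R1 - C22 : 9, with a D of 0.91 and an S of 1.06, read 5.95, 4.94 and 5.89 (0 min), 6.08, 5.35 and 6.92 (30 min), 5.80, 5.90 and 6.28 (60 min), 6.75, 5.90 and 6.43 (120 min), 6.46, 6.03 and 6.47 (180 min), and 7.04, 6.34 and 6.33 (240 min) on mRNA arrays. On nascent arrays that spot read 7.04, 6.40 and 7.33 (0 min), 7.07, 7.51 and 7.40 (30 min), 7.02, 8.09 and 7.32 (60 min), 8.18, 7.97 and 8.10 (120 min), 8.12, 8.36 and 7.47 (180 min), and 7.78, 8.16 and 8.13 (240 min). Its mRNA separated at 180 and 240 min, and its nascent signal at 120, 180 and 240 min. At 120 min each mRNA array was above the 0 min array of its own number.

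R16 - C21 : 8 had a D of 0.88 and an S of 0.95. Its mRNA values were 5.55, 4.48 and 4.66 (0 min), 5.28, 4.49 and 4.74 (30 min), 5.27, 4.90 and 4.79 (60 min), 5.76, 4.85 and 5.00 (120 min), 6.27, 5.55 and 5.19 (180 min), and 6.02, 5.36 and 5.01 (240 min). Its nascent values were 8.23, 7.75 and 7.35 (0 min), 8.12, 8.01 and 8.13 (30 min), 8.07, 7.99 and 8.59 (60 min), 8.64, 8.74 and 7.78 (120 min), 8.91, 8.64 and 8.52 (180 min), and 8.99, 9.49 and 8.00 (240 min). The mRNA arrays overlapped 0 min at every time, and the nascent arrays lay wholly above it at 180 min only. Each mRNA array at 120, 180 and 240 min was, however, above the 0 min array of its own number. R8 - C24 : 4 had a D of 0.83 and an S of 0.82. Its mRNA values stood at 4.34, 5.00 and 5.22 (0 min), 3.83, 5.64 and 6.30 (30 min), 3.51, 5.70 and 6.41 (60 min), 4.25, 6.49 and 6.13 (120 min), 5.35, 5.97 and 5.43 (180 min), and 4.66, 5.54 and 5.36 (240 min). Its nascent values stood at 4.43, 4.35 and 5.08 (0 min), 4.28, 4.71 and 5.65 (30 min), 4.17, 5.35 and 5.99 (60 min), 4.79, 5.70 and 5.65 (120 min), 5.70, 5.91 and 5.22 (180 min), and 4.99, 5.32 and 5.00 (240 min). Replicates spread widely, with an SD of 1.51 in mRNA at 60 min (n = 3), and both assays separated from 0 min at 180 min only.

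R3 - C14 : 8 had a D of 0.91 and an S of 0.81. For mRNA its arrays read 4.24, 3.94 and 4.35 (0 min), 4.67, 4.15 and 4.64 (30 min), 4.55, 4.34 and 4.69 (60 min), 5.16, 4.73 and 5.21 (120 min), 5.24, 4.82 and 4.95 (180 min), and 5.22, 4.32 and 4.63 (240 min). For nascent signal its arrays read 7.08, 7.32 and 7.37 (0 min), 7.45, 7.83 and 7.67 (30 min), 7.83, 7.74 and 7.84 (60 min), 7.85, 8.03 and 8.06 (120 min), 7.68, 8.05 and 8.21 (180 min), and 7.45, 8.05 and 8.67 (240 min). Nascent arrays lay above 0 min at all 5 later times, and mRNA arrays at 120 and 180 min. Set against the 0 min array of its own number, each mRNA array was higher at every later time. R15 - C22 : 5 had a D of 1.08, an S of 0.81 and an E of 0.10. For mRNA the 18 arrays read 4.89, 4.59 and 3.95 (0 min), 4.80, 3.96 and 4.21 (30 min), 4.79, 4.89 and 4.82 (60 min), 5.43, 5.42 and 5.39 (120 min), 5.33, 5.72 and 5.48 (180 min), and 5.73, 5.46 and 5.18 (240 min). For nascent signal the 18 arrays read 7.38, 7.01 and 7.06 (0 min), 8.03, 7.33 and 7.34 (30 min), 8.02, 7.24 and 7.28 (60 min), 8.20, 7.85 and 7.68 (120 min), 8.00, 8.20 and 8.10 (180 min), and 7.62, 8.01 and 7.99 (240 min). Both assays separated from 0 min at 120, 180 and 240 min and overlapped it at 30 and 60 min.

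The other 16 late-induced spots had D from 0.66 to 1.21 and S from 0.51 to 1.41, and their 2 assays often differed in how clearly they stood apart from 0 min. R2 - C17 : 9 had an S of 1.41 and a D of 0.68. Its nascent arrays read 6.75, 7.46 and 7.24 (240 min), against 5.93, 5.33 and 5.69 (0 min) and lay above 0 min at all 5 later times. Its mRNA arrays read 5.21, 5.57 and 5.39 (240 min), against 4.68, 4.40 and 4.77 (0 min) and separated at 240 min only. R3 - C13 : 10 showed the opposite order, with mRNA arrays at 8.89, 8.95 and 8.43 (240 min), against 8.01, 7.47 and 7.73 (0 min), separated from 60 min on. Its nascent arrays, at 7.62, 9.23 and 8.65 (240 min), against 7.79, 7.84 and 8.70 (0 min), overlapped 0 min at every time. In R6 - C12 : 3 neither assay stood above 0 min at 120 min, with mean changes of -0.08 in mRNA and -0.07 in nascent signal. At 240 min those changes were 1.07 and 1.31. R11 - C24 : 4 and R3 - C3 : 10 overlapped 0 min at every time in both assays. In R3 - C3 : 10, however, each mRNA array was above the 0 min array of its own number at every later time.

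Over all 28 spots, the 3 mRNA arrays lay above the 3 at 0 min in 1 spot at 30 min, against 3.73% of all spots with these values. At 60 min they did so in 5 late-induced spots (5.35% of all spots) and at 120 min in 16 (6.77%). At 180 min the count was 17 (7.99%), and it was 16 at 240 min (8.12%). For nascent signal 5 late-induced spots separated at 30 min (4.37% of all spots) and 8 at 60 min (4.31%). Later counts for nascent signal were 18 at 120 min (12%), 20 at 180 min (9.59%) and, at the last time, 16 (7.23%). Both assays separated at 240 min in 10 of the 28, against 1.55% of all spots. Since the rule chose the spots by changes from 0 min, nothing is read from these counts. Same-numbered mRNA arrays deviated together, so mRNA was also set against the 0 min array of its own number. Each of the 3 arrays then lay above its partner in 24 late-induced spots at 120 min (22.9% of all spots), in 22 at 180 min (21.8%) and in 24 at 240 min (21.3%).

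The spread between replicates was somewhat wide in these spots. The median SD over 3 arrays was 0.413 in mRNA of the late-induced spots and 0.348 over the 3574 spots (log2). For nascent signal it was 0.340 in the late-induced spots and 0.246 over the 3574 spots. The part of this spread in D and S was not tested.

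Changes between times inside the early and the late window were not used by the rule, and these were tested. The 6 tests asked whether mRNA, nascent signal or their difference changed at 60 min against 30 min and at 240 min against 120 min. None of the 28 late-induced spots passed an adjusted p of 0.05 in any of them (limma, Benjamini-Hochberg over all spots tested). Over all spots the tests made 0 calls among 4882 spots for mRNA at either step (0%), 0 among 5113 for nascent signal early (0%), 1 among 5113 for nascent signal late (0.0196%) and 0 among 4805 for the difference at either step (0%). At an unadjusted p under 0.05 the late-induced spots gave 0 and 2 for mRNA early and late, 4 and 2 for nascent signal, and 0 and 0 for the difference. Over all spots tested the same counts were 38 and 61 of 4882, 125 and 84 of 5113, and 16 and 26 of 4805. Fits with the replicate number as a block gave 2 and 5, 7 and 2, and 1 and 1 in the same order, and 0 late-induced spots after adjustment. Over all spots the block fits gave 196 and 256, 261 and 151, and 96 and 103 at an unadjusted p under 0.05.

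At the early step, the median change of the late-induced spots in mRNA was 0.16 at 60 min against 30 min, above 0 in 21 of 28, beside 0.01 over all spots tested. In nascent signal it was 0.16, above 0 in 24 of 28, beside 0.01 over all spots. R15 - C1 : 7 had the largest nascent change whose size did not rest on a single array, at 0.98 ± 0.33 (SE; limma, adjusted p = 1.00, unadjusted p = 0.00952). Its mRNA change over the same step was 0.06. Nascent changes were larger in R11 - C1 : 14, at 1.11 ± 0.55, and about equal in R12 - C1 : 14, at 0.97 ± 0.62. Both rested on replicate 1 at 30 min, without which they were 0.15 and -0.02, and that of R12 - C1 : 14 was 1.48 without replicate 2 at 30 min. The highest mRNA changes were 0.55 ± 0.69 in R11 - C1 : 14, 0.51 ± 0.26 in R15 - C22 : 5 and 0.51 ± 1.00 in R11 - C24 : 4. In these fits without a replicate block, only that of R15 - C22 : 5 exceeded its SE. With the block the SEs were 0.48, 0.22 and 0.57, and the change of R11 - C1 : 14 exceeded its SE too. The change of R15 - C22 : 5 was 0.323 when replicate 2 of 30 min was left out, and that of R11 - C1 : 14 was 0.987 or 0.043 when replicate 1 or 3 of 30 min was. The lowest were -0.39 ± 0.50 in R1 - C6 : 3, -0.21 ± 0.43 in R7 - C21 : 12 and -0.13 ± 0.44 in R6 - C12 : 3, each within its SE. The same 3 spots had the lowest nascent changes, at -0.15 ± 0.48 in R1 - C6 : 3, -0.41 ± 0.35 in R7 - C21 : 12 and -0.16 ± 0.53 in R6 - C12 : 3. The difference, mRNA minus nascent, had a median of -0.10, above 0 in 12 of 28, beside 0.00 over all spots. Single arrays moved the early nascent median, which became 0.379 or 0.103 when replicate 1 or 3 of 60 min was left out, and 0.277 when replicate 3 of 30 min was. The median difference lay between -0.258 and -0.00292 when 1 array was left out.

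At the late step, mRNA and nascent signal of the late-induced spots had medians of opposite sign over the 3 replicates, but not in every replicate. In mRNA the median change was 0.19 at 240 min against 120 min, above 0 in 20 of 28, beside -0.01 over all spots. In nascent signal it was -0.08, above 0 in 8 of 28, beside -0.02 over all spots. The difference, mRNA minus nascent, had a median of 0.21 and was above 0 in 23 of 28, with a range from -0.39 to 0.93, beside 0.01 over all spots. These medians depended on single arrays. For replicates 1, 2 and 3 taken singly, the median change was 0.21, 0.29 and -0.05 in mRNA and -0.13, 0.02 and 0.01 in nascent signal. Only replicate 1 thus had a rise in mRNA with a fall in nascent signal. The mRNA median was 0.00326, 0.122 and 0.341 when replicate 1, 2 or 3 of 240 min was left out, and 0.0889 and 0.0639 when replicate 2 or 3 of 120 min was. Leaving out nascent replicate 1 of 240 min, the nascent median turned to 0.0824 and the median difference was 0.0406. The nascent median was -0.144 when replicate 1 of 120 min was left out and -0.13 when replicate 2 of 240 min was. The median difference was 0.344 without mRNA replicate 1 at 120 min, and 0.107, 0.0894 and 0.38 without mRNA replicates 1, 2 and 3 at 240 min.

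The estimated late changes were largest in the same pair of spots in both assays, though neither passed the test. R6 - C22 : 1 had a change of 1.76 ± 0.62 in mRNA and of 1.21 ± 0.47 in nascent signal at 240 min against 120 min (SE; limma, adjusted p = 1.00 for both). With the replicate number as a block its mRNA change had an SE of 0.28 and an adjusted p of 0.0606. R6 - C12 : 3 had a change of 1.14 ± 0.44 in mRNA and of 1.38 ± 0.53 in nascent signal, again with an adjusted p of 1.00 in limma for both. Next in order came R15 - C1 : 7 in mRNA, at 0.83 ± 0.49, and R16 - C21 : 8 in nascent signal, at 0.44 ± 0.34. With the block the mRNA change of R15 - C1 : 7 had an SE of 0.22 and an adjusted p of 0.534 in limma. Single arrays moved several of these changes. Leaving out a replicate of 240 min, the mRNA change was 0.307 in R15 - C1 : 7 (replicate 1) and 0.666 in R6 - C12 : 3 (replicate 2), and the nascent change of R6 - C22 : 1 was 1.89 (replicate 1) or 0.667 (replicate 2). The nascent change of R16 - C21 : 8 was 0.134 when replicate 3 of 120 min was left out, and 0.107 or 0.852 when replicate 2 or 3 of 240 min was. The lowest late changes in mRNA were -0.55 ± 0.56 in R1 - C22 : 4, -0.44 ± 0.76 in R8 - C24 : 4 and -0.35 ± 1.00 in R11 - C24 : 4. In nascent signal the lowest were -0.54 ± 0.36 in R1 - C22 : 4, -0.45 ± 0.34 in R12 - C1 : 15 and -0.42 ± 0.65 in R11 - C24 : 4. The remaining late-induced spots lay between these ends in both assays.

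**Figure D4:**
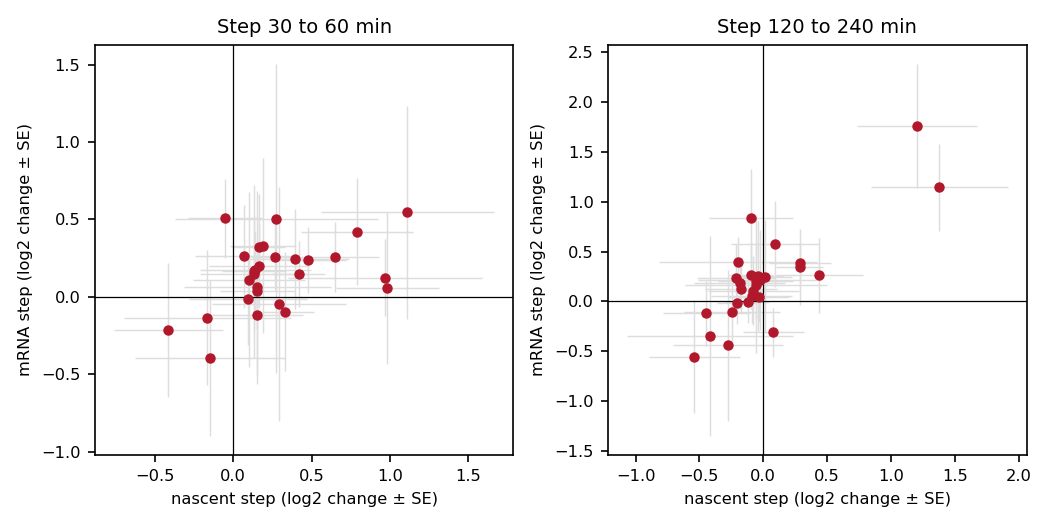
Change in mRNA (log2 ± SE) against change in nascent signal (log2 ± SE) of the 28 late-induced spots, at 60 against 30 min (left) and at 240 against 120 min (right), from the fits to 18 arrays of each assay without a replicate block. In the right panel R6 - C22 : 1 (1.21 in nascent signal, 1.76 in mRNA) and R6 - C12 : 3 (1.38 and 1.14) stand apart from the other spots, most of which lie near 0.

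D, E, S and the medians over time above were measured against the typical spot at that time. Changes on the arrays followed quantile normalisation, which cancels a change shared by all spots of an array. In the authors' table as deposited, without that centring, the median mRNA ratio of 240 min to 0 min was 1.27 in the late-induced spots and 0.632 in all 3574 spots. It was above 1 in 23 of the 28 late-induced spots and in 9.12% of all spots. For the synthesis rate the median ratio was 0.965 in the late-induced spots and 0.567 in all spots, and it was above 1 in 13 of 28 and in 3.41% of all spots. Both ratios were above 1 in 12 of the 28. Earlier, the synthesis ratio was above 1 in 27 of the 28 at 120 min, with a median of 1.34 beside 0.799 in all spots, and in 16 at 180 min, with a median of 1.03 beside 0.592. The median mRNA ratio of the late-induced spots was 1.19, 1.33, 1.33 and 1.28 after 30, 60, 120 and 180 min, beside 1.03, 1.02, 0.744 and 0.658 in all spots. From 60 min on the uncentred mRNA median of the late-induced spots thus lay between 1.27 and 1.33, while that of all spots was lower at each later time. The highest mRNA ratio was 4.23 in R6 - C22 : 1 and the highest synthesis ratio 2.99 in R15 - C1 : 7. Per the series' design text, rates were normalised to cell volume, with factors that reach 1.65 at 240 min. As plain arithmetic, the median ratios of the late-induced spots times 1.65 were 2.09 for mRNA and 1.59 for synthesis. Those of all spots were 1.04 and 0.936. It remained unknown whether the mRNA columns already carry such a factor, and whether the synthesis rates had been multiplied or divided by it. The products may therefore correct a column wrongly, and no rise or fall is read from them.

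**Figure D5:**
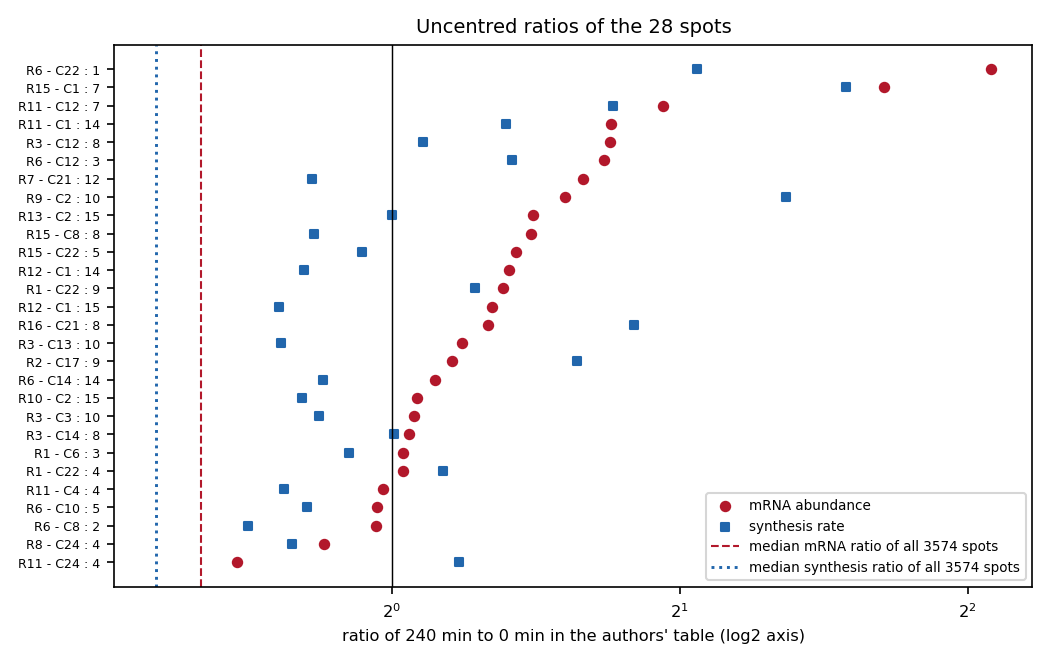
Ratio of 240 min to 0 min in the authors' table, without centring, for mRNA abundance (red circles) and synthesis rate (blue squares) of each late-induced spot, on a log2 axis. Dashed and dotted lines are the medians of all 3574 spots, 0.632 for mRNA and 0.567 for synthesis rate. Ratios of mRNA lie above 1 in 23 spots and those of synthesis in 13.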

How the data were processed

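The authors deposited 1 intensity per spot and array, without background values, flags or gene names. The authors also deposited 1 table with a signal per spot, time and measure, replicates combined; all of its 12 columns were used, and 0 columns of per-sample values were left out. Per the labels, mRNA was measured as cDNA and nascent transcription by genomic run-on. Scanner, background treatment and table scaling were not given in the sources used here.

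All 28 spots were chosen from the table, and this choice, the limits and the tests were made with earlier results of these data known. An intensity of 0 counted as missing and all others were taken to log2. A spot was tested when at least 2 of 3 arrays of every group were above 0. Arrays were quantile normalised within an assay and fitted with limma 3.58.1 (R 4.3.3), time as a factor, over the 18 arrays of an assay, or over all 36 arrays with weights per assay for the difference between assays. This normalisation cancels a change shared by all spots of an array. P-values were adjusted by Benjamini-Hochberg over all spots, threshold 0.05. The fit was also run on simulated data whose arrays were independent. Deviations shared by same-numbered arrays were not simulated, so that run does not show how the fits behave with them.

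Spots named in the text are the 12 with the highest lower value of D and S, those next to a limit, and the 3 highest and 3 lowest changes per step and assay; others were picked after their values were seen. Replicate numbers were read from the numbering of the array files. Same-numbered mRNA arrays deviated together from their group means in all 45 pairs (r from 0.615 to 0.846). The numbers thus paired them, from the data and not from the labels. Nascent arrays did so less, with r from -0.232 to 0.652, a median of 0.314 and 13 of 45 pairs at or below 0.1. Alternatives were a replicate block, median scaling, cyclic loess, centring by printing position, a stricter filter, a pseudocount, each array left out, and other list limits. Python 3.11.15, numpy 2.4.6, pandas 2.3.3 and matplotlib 3.10.9 were used.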

Additional observations from a re-analysis of the deposited data

How the results depend on the processing

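No late-induced spot was called in any step test by limma under any alternative. With the replicate block no call changed. The medians were fixed by construction in that fit (mRNA 0.16 early and 0.19 late, nascent signal 0.16 and -0.08, difference -0.10 and 0.21). Every late-induced spot had a value on every array, and every group held the same replicate numbers, so only SEs and p-values could differ. Lists of 400 gave 43 spots, and asking that E not be among the 1000 highest, an alternative added after seeing the data, gave 7. Lists of 200 gave 23, of which 16 were the same spots, and D, E and S from the arrays gave 25, of which 13 were the same. Leaving out 1 array, the median mRNA change ran from 0.128 to 0.213 early and from 0.00326 to 0.341 late, the nascent one from 0.103 to 0.379 early and from -0.144 to 0.0824 late, and the difference from -0.258 to -0.00292 early and from 0.0406 to 0.380 late. Spots whose 240 min arrays all lay above 0 min then numbered 17 to 21 for mRNA and 16 to 21 for nascent signal, beside 16 and 16 with all arrays. With 2 arrays set against 3, any spot separates more easily. The share over all spots was not computed for these counts, so nothing is read from them. With the replicate block, each array set against its own number, the count for mRNA was 24 (21.3% of all spots). For nascent signal it was 19, where that share was not computed, so nothing is read from that count. The direction of some small changes turned. In mRNA early, R6 - C12 : 3 was at 0.083 with printing positions centred and ran from -0.296 to 0.079 with 1 array left out, and R11 - C24 : 4 from -0.347 to 1.48. In mRNA late, R11 - C24 : 4 ran from -1.13 to 0.161. In nascent signal early, R6 - C12 : 3 was at 0.022 with positions centred and ran from -0.468 to 0.127, R1 - C6 : 3 was at 0.039 with positions centred and ran from -0.552 to 0.403, and R12 - C1 : 14 ran from -0.023 to 1.48. In nascent signal late, R11 - C24 : 4 ran from -0.844 to 0.216. Settings that leave an array out rest on fewer arrays; for the others the cause was not tested. The number of arrays limits the precision, and without background values no bound could be set for dim spots.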

Other observations

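The 28 spots were not spread evenly over the array, a pattern noticed after the positions had been seen and given here without a test. Of the 28 late-induced spots, 16 lay in the outermost 2 rows or columns of blocks (57.1%), against 41.0% of the 105 spots also high early and 36.6% of all 3574 spots. Block columns 1 and 2 held 7 of the 28 (25%), against 7.11% of all spots, and columns 21 to 24 held 8 (28.6%), against 16.4%. R12 - C1 : 14 and R12 - C1 : 15 share a block, as do R1 - C22 : 4 and R1 - C22 : 9. The median D of the neighbours of a late-induced spot had a median of 0.06 and was above 0 in 18 of 28, against a median of -0.01 for the neighbours of all 3574 spots. After subtraction of that local median the rule, as an alternative added after seeing the data, gave 34 spots, of which 20 were among the 28. Nascent replicate 1 at 30 min was low in 2 spots at the same printing position of neighbouring blocks, at 4.49 in R11 - C1 : 14 and 4.54 in R12 - C1 : 14.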
